A study of Saccharomyces cerevisiae with 4 samples.

Results

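The genes of the small subunit processome, the nucleolar assembly that makes the precursor of the small ribosomal subunit, were followed in baker's yeast through a brief heat shock with and without rapamycin. The 55 genes were chosen by systematic name as known assembly factors of the small subunit. No measured value entered that rule, but earlier results of these data were known when the genes were chosen. All 55 were found among the 7126 features of the deposited table. Every one also passed the filter on low values, a mean of at least 5 normalised reads over the 4 libraries, which left 5642 features in all.

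All cells were of strain DPY438, which carries Hsf1-AA, an allele of heat shock factor 1 (the transcription activator of chaperone genes) that rapamycin draws out of the nucleus. Each of the 4 conditions had 1 library: 10 min at 39 °C with 1 µM rapamycin for 45 min, 10 min at 39 °C without rapamycin, 30 °C with rapamycin, and 30 °C without it. Every cell therefore carried the Hsf1-AA allele, no Hsf1 wild type strain was measured, and the labels do not say how many clones or cultures stand behind a library. The labels do not say either whether the strain resists rapamycin at its natural target, the TORC1 kinase complex, or in which order rapamycin and heat were applied.

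The processome forms on the growing ribosomal RNA precursor, where the U3 small nucleolar RNA pairs with it and many proteins bind in separate complexes, fold it, modify it and cut it. Its genes belong to the ribosome biogenesis group, which growing yeast transcribes together and shuts down within minutes of stress. A pair of short promoter motifs, PAC and RRPE, marks that group. The repressors Dot6 and Tod6 bind PAC and the repressor Stb3 binds RRPE, and TORC1 and protein kinase A hold these repressors in check in growing cells.

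Promoters are described first. The shared motifs were not used to choose the genes, but PAC and RRPE are known marks of the group to which these genes belong. Their share among the members is therefore a description and not a test. They were read from the RefSeq assembly R64, the assembly that sacCer3 names, as the 250 bases before each start codon. The PAC core GATGAG stood on either strand in 48 of the 55 promoters, which is 87.3%, against 17% of all 6001 promoters of the same length. The RRPE core AAAAATTT stood in 47 members, 85.5%, against 13.4% of all promoters. Both motifs occurred together in 42 members, 76.4%, against 4.98% of all promoters. A match is a stretch of letters in this window and not a measured binding site.

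The 8 stretches that follow are shown because they carry the motif pair in genes from both ends of the response, and because 1 of them, RRP7, lacks PAC. NSR1 and NOP1 had some of the lowest heat shock ratios, PWP2 and UTP14 carry PAC in the other orientation, LCP5 and SAS10 share their upstream region with another gene of the growth program, and NAN1 and RRP7 had the highest ratios without rapamycin. Each is written 5′ to 3′ along the gene's own strand, and capitals mark the PAC and RRPE cores or their reverse complements.
NSR1: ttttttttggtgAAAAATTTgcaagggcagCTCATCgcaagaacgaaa
NOP1: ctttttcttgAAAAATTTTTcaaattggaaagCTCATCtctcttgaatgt
PWP2: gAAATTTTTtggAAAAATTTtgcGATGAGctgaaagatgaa
UTP14: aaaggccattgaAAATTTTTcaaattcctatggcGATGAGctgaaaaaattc
LCP5: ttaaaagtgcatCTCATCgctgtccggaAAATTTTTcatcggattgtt
SAS10: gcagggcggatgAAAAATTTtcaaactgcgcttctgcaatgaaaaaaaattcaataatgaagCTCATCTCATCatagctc
NAN1: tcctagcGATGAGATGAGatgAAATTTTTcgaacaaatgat
RRP7: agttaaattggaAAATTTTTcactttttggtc

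In R64 the NSR1 stretch lies on the minus strand at chrVII:807826-807873, 217 to 170 bases before the start codon. The NOP1 stretch is on the plus strand at chrIV:427128-427177, that of PWP2 on the minus strand at chrIII:223355-223395, and that of UTP14 on the plus strand at chrXIII:82963-83014. LCP5 has its stretch on the plus strand at chrV:414293-414340, and SAS10 on the minus strand at chrIV:183091-183170. The NAN1 stretch is on the plus strand at chrXVI:310082-310122 and the RRP7 stretch on the minus strand at chrIII:65682-65713. In NSR1, NOP1 and UTP14 the RRPE core lies upstream of the PAC core, as in 35 of the 42 promoters with both. LCP5 has the other order in the stretch shown, with PAC farther from the gene.

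By quartiles, the motif copies closest to the gene were less spread in members than over all promoters with the motif. In the 48 members with a PAC core, the copy closest to the gene began at a median of 105.5 bases before the start codon, with quartiles of 88 and 127.5 bases. Over all promoters with PAC the median was 128.5 bases, with quartiles of 82 and 190.75. The closest RRPE core began at a median of 124 bases (quartiles 114 and 143.5) in members, and at 136 bases (105.75 and 176) over all promoters with RRPE. In members the closest copies ranged from 54 to 204 bases before the start codon for PAC and from 34 to 224 for RRPE. Where both were present, the PAC and RRPE copies nearest to each other had centres a median of 17 bases apart, with a range of 9 to 53. Those need not be the copies closest to the gene.

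Longer forms of both motifs were common too. The extended PAC GCGATGAG was found in 30 members, 54.5%, against 3.83% of all promoters, and the extended RRPE, the core preceded by TG, in 29, 52.7%, against 3.87%. The stress response element AGGGG, which Msn2 and Msn4 bind, was in 7 members, 12.7%, against 18.8% of all promoters. The Hsf1 element, searched as TTC, GAA and TTC each set apart by any 2 bases, was in 1 member, RRP9, against 0.75% of all promoters. Sites of the general factor Reb1, TTACCCG, were in 8 members, 14.5%, against 7.03%. The longer forms contain the cores, so these counts overlap.

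**Figure D1:**
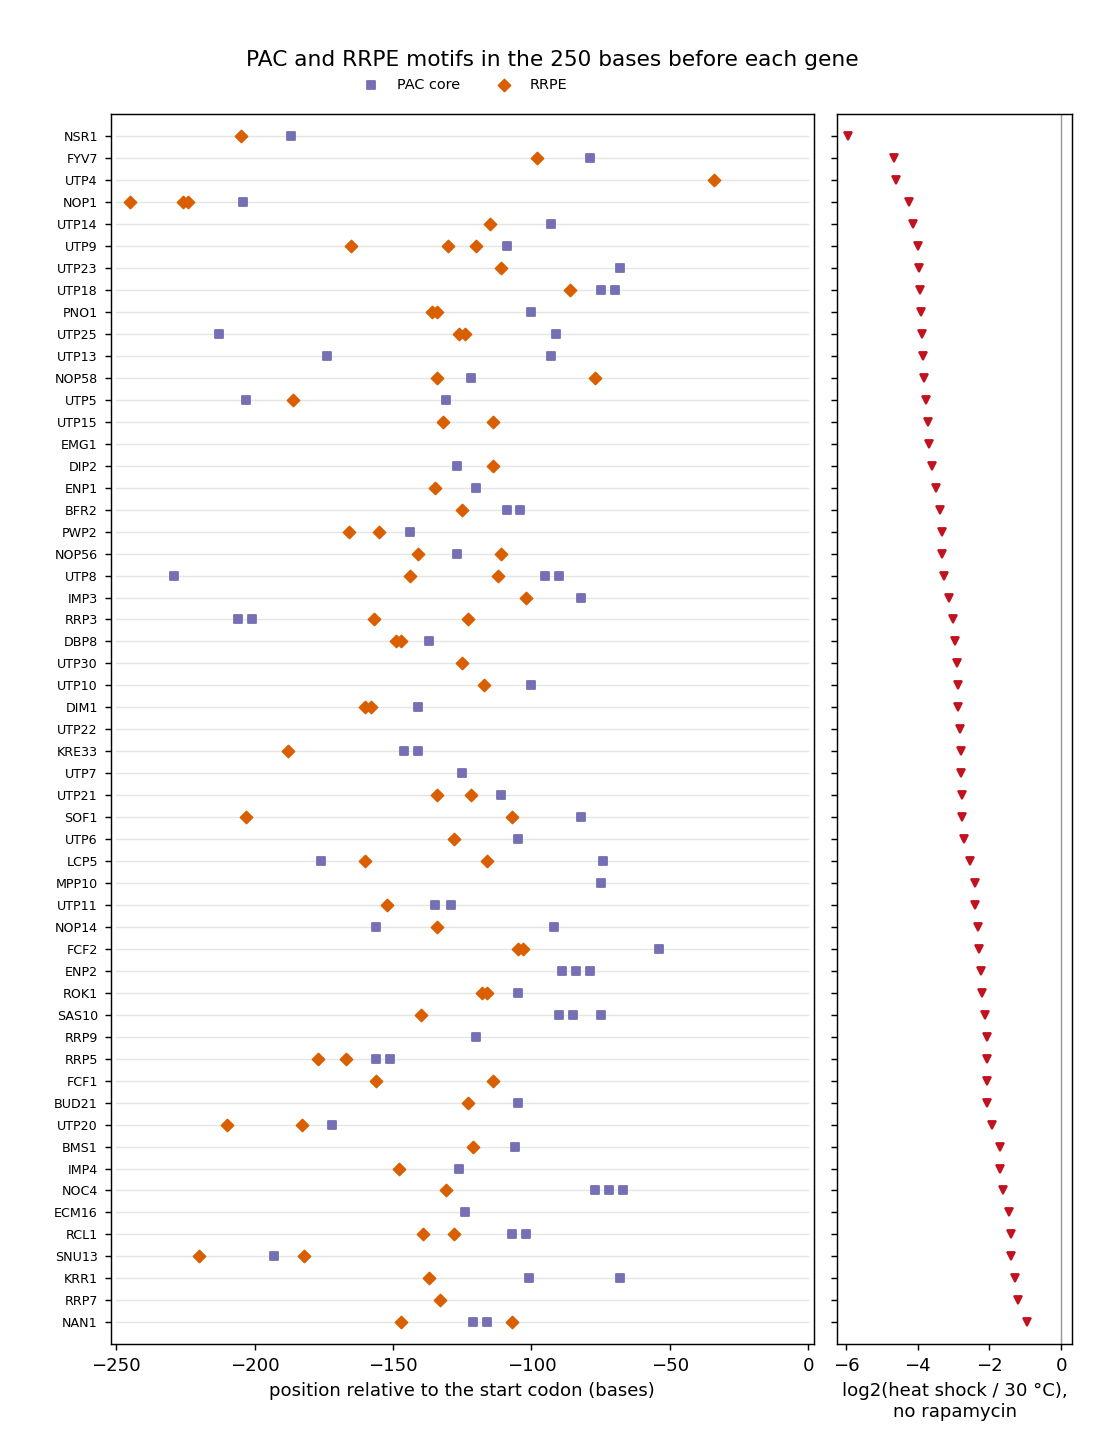
Start of every PAC core (squares) and RRPE core (diamonds) in the 250 bases before the start codon of each of the 55 genes, with the gene's log2 ratio of heat shock to 30 °C without rapamycin at the right. Genes run from the lowest ratio at the top, NSR1 at -5.95, to the highest at the bottom, NAN1 at -0.96. Genes with both motifs are found along the whole range. FYV7 had no reads in heat shock without rapamycin, and its position is set by the 1 added to each value.

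Heat shock without rapamycin was compared with 30 °C without rapamycin, which asks what the heat did to these genes with Hsf1 left in the nucleus. Nearly the whole processome stood far below its 30 °C level. Of the 55 members, 54 were at least 2-fold lower, a size rule that 19.3% of all 5642 features met, and none was at least 2-fold higher, against 19.8% of all features. The median log2 ratio of the members was -2.84, and that of all features 0.02. At least 4-fold lower were 45 members, against 6.4% of all features, and at least 8-fold lower 23, against 1.99%. Ratios are log2 of the deposited values with 1 added, and the sizes are descriptions of 1 library per condition, with no test. The median of the members' 95% counting intervals ran from -3.61 to -2.05, and all 55 intervals lay below 0. Those intervals cover counting error only, and not the difference between cultures. They were not computed over all features. In bulk RNA, fewer cells with the transcript and less transcript per cell cannot be told apart, and values are relative to the other RNA of a library.

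Taken as a sum, the 55 genes gave 2065 reads in heat shock without rapamycin, or 0.102% of the library (exact 95% interval 0.0975% to 0.106%). At 30 °C without rapamycin they gave 13889 reads, or 0.889% (0.875% to 0.904%). Their summed normalised value was 6.41-fold lower in heat shock, with a counting interval of 6.12 to 6.72. The level of single members in that heat shock library was low, a median of 21 reads with a range of 0 to 273, so the ratio of any 1 gene is known less well than that of the sum. At 30 °C without rapamycin the median was 182 reads, and the range 17 to 1083.

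**Figure D2:**
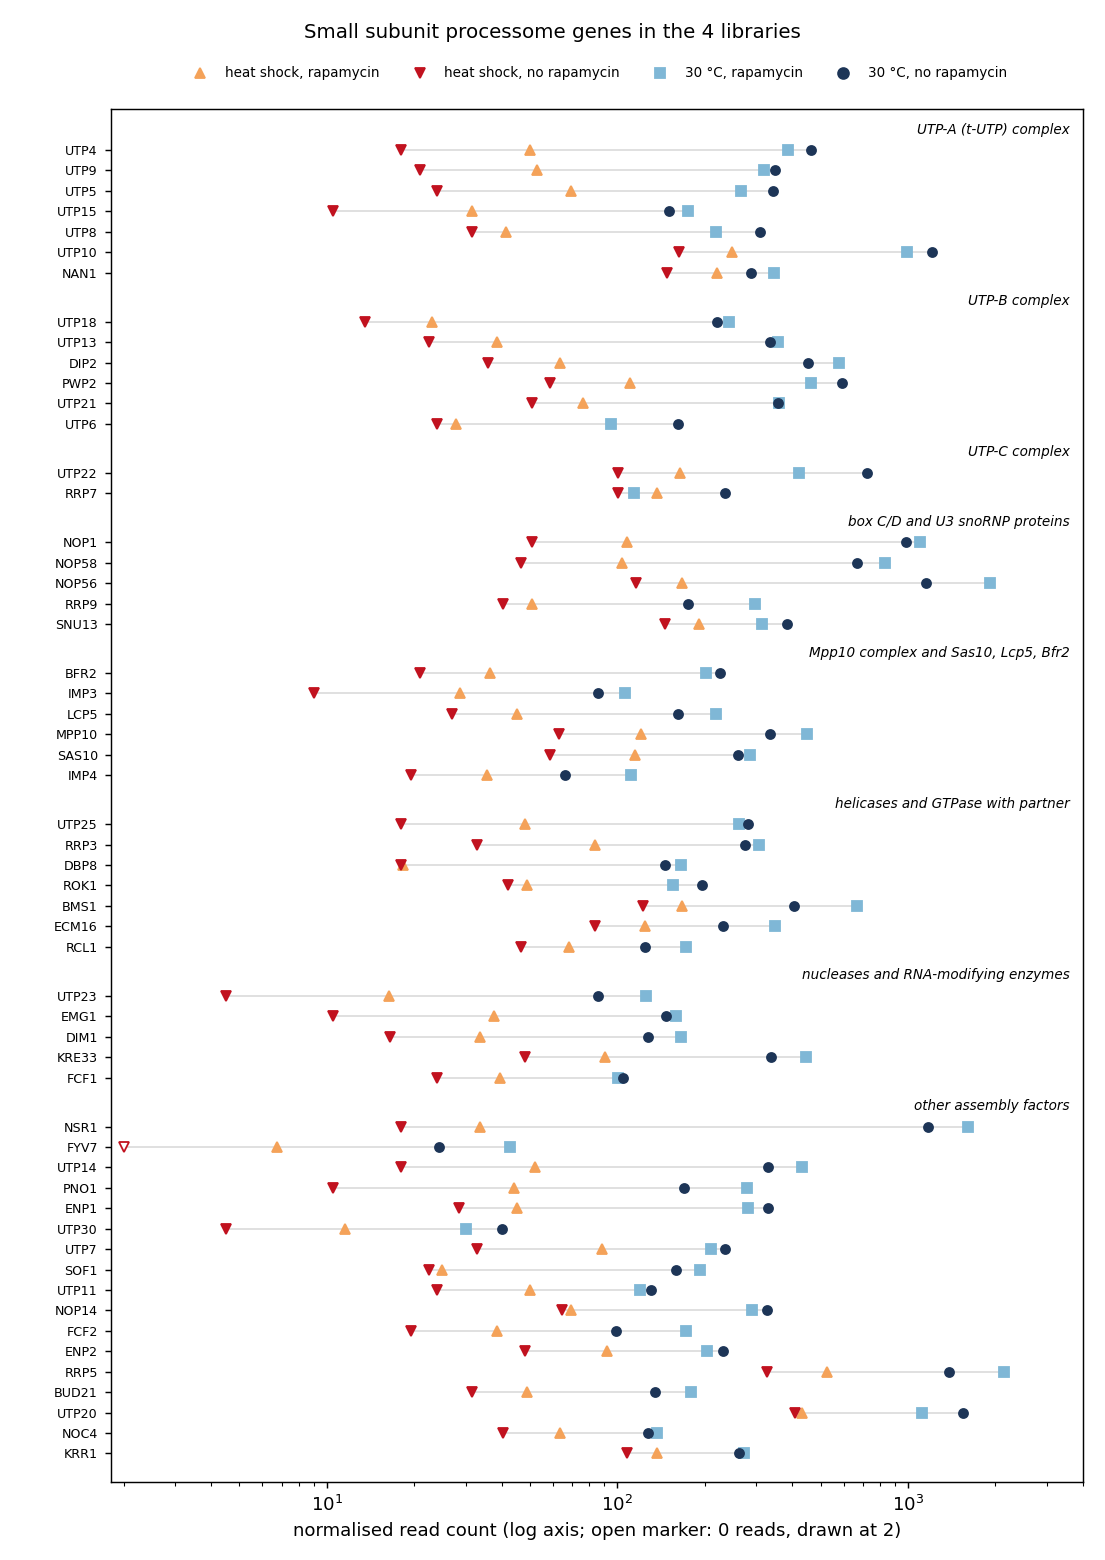
Normalised read count of each of the 55 genes in the 4 libraries on a log axis, grouped by role and ordered within each group by the ratio of heat shock to 30 °C without rapamycin. In 54 of 55 genes both heat shock libraries (triangles) lie left of both 30 °C libraries (square and circle); the exception is RRP7.

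NSR1 (YGR159C), a nucleolar RNA-binding protein related to human nucleolin, had the lowest heat shock ratio. Its normalised read count was 33.6 in heat shock with rapamycin and 18.0 in heat shock without it, against 1606 at 30 °C with rapamycin and 1169 at 30 °C without it. Both heat shock libraries were far below both 30 °C libraries. NSR1 was 61.6-fold lower in heat shock without rapamycin, with a counting interval of 37.0 to 126. In R64 the gene lies on the minus strand at chrVII:806412-807656 in 1 coding piece, as do all 55 members, so no intron divides any of them.

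The box C/D proteins come next. They form the U3 particle and, with other guide RNAs, methylate the precursor. NOP1 (YDL014W), the fibrillarin methyltransferase, had 108 normalised reads in heat shock with rapamycin and 51.0 in heat shock without it, against 1104 at 30 °C with rapamycin and 981 at 30 °C without it. Both heat shock values were far below both 30 °C values. NOP1 was 18.9-fold lower in heat shock without rapamycin (13.6 to 28.0). NOP58 (YOR310C), a scaffold of the same particle, was 14.1-fold lower (9.98 to 21.4) and its partner NOP56 9.95-fold lower (7.93 to 12.8). RRP9 (YPR137W), the U3-specific member, was 4.23-fold lower (2.82 to 6.80).

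SNU13 (YEL026W), the fifth protein of the particle, also binds U4 RNA in the spliceosome. It had 191 normalised reads in heat shock with rapamycin and 145 in heat shock without it, against 314 at 30 °C with rapamycin and 385 at 30 °C without it. It was 2.63-fold lower without rapamycin (2.09 to 3.37), the smallest difference in this group. The group median was -3.32, and all 5 were at least 2-fold lower.

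On the deposited scaling, the U3 RNA itself was higher in heat shock without rapamycin and close to its 30 °C level with it. It is transcribed from a pair of genes, snR17a and snR17b, whose near-identical copies cannot be told apart with certainty by read counting. For snR17a the values were 15794 in heat shock with rapamycin and 26246 in heat shock without it, against 13504 at 30 °C with rapamycin and 10750 at 30 °C without it. With rapamycin the log2 ratio of heat shock to 30 °C was 0.23 for snR17a and -0.12 for snR17b. Without rapamycin the ratios were 1.29 and 1.26. The contrast between the arms depends on the scaling, since as a share of library reads both genes were higher in heat shock in both arms. With rapamycin snR17a had 16439 of 2254007 reads in heat shock and 15201 of 3231228 at 30 °C. It had 17506 of 2026880 in heat shock and 7519 of 1561620 at 30 °C without rapamycin. How small nucleolar RNAs were recovered in library preparation was not tested.

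The UTP-A complex, also called t-UTP, binds the precursor first and is tied to transcription of ribosomal DNA. Its 7 members had a median of -3.72, and 6 of them were at least 2-fold lower. UTP4 (YDR324C), a WD-repeat protein of the complex, had 50.0 normalised reads in heat shock with rapamycin and 18.0 in heat shock without it, against 386 at 30 °C with rapamycin and 465 at 30 °C without it. It was 24.5-fold lower without rapamycin (14.6 to 50.5), and the 2 temperatures did not overlap. UTP9 was 15.8-fold lower (9.68 to 30.7), UTP5 13.8-fold (8.63 to 25.4), UTP15 13.2-fold (6.70 to 36.4), UTP8 9.58-fold (6.29 to 16.2) and UTP10, the largest protein of the complex, 7.37-fold (6.06 to 9.13).

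NAN1 (YPL126W), also called UTP17, was the exception in UTP-A and the only member under 2-fold. It had 221 normalised reads in heat shock with rapamycin and 148 in heat shock without it, against 345 at 30 °C with rapamycin and 289 at 30 °C without it. The 2 heat shock values were still the lower ones. It was 1.94-fold lower without rapamycin (1.52 to 2.50). Just inside the size rule stood RRP7 with 2.32-fold (1.75 to 3.15) and KRR1, a KH-domain factor, with 2.42-fold (1.85 to 3.25).

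The UTP-B complex, which binds the precursor after UTP-A and holds the U3 particle, was lower throughout. All 6 members were at least 4-fold lower and the median was -3.47. Most of its proteins are built on WD repeats. UTP18 was 15.3-fold lower (8.37 to 36.4), UTP13 14.3-fold (8.87 to 27.1), DIP2 12.2-fold (8.29 to 19.9) and PWP2 9.97-fold (7.28 to 14.4), and UTP21 and UTP6 were 6.87-fold and 6.5-fold lower. PWP2 (YCR057C) had 110.5 normalised reads in heat shock with rapamycin and 58.5 in heat shock without it, against 465 at 30 °C with rapamycin and 592 at 30 °C without it.

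The UTP-C pair lay apart from each other. UTP22 (YGR090W), its large scaffold, had 164 normalised reads in heat shock with rapamycin and 100.5 in heat shock without it, against 420.2 at 30 °C with rapamycin and 723 at 30 °C without it. It was 7.14-fold lower without rapamycin (5.57 to 9.44). RRP7 (YCL031C), its partner, had 136 normalised reads in heat shock with rapamycin and 100.5 in heat shock without it, against 114 at 30 °C with rapamycin and 234 at 30 °C without it. RRP7 is the 1 gene whose temperatures overlapped, since its 30 °C library with rapamycin lay between its heat shock libraries. In all, 54 of 55 members had both heat shock values below both 30 °C values, an order seen in 34.9% of all features.

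Among the Mpp10 complex and the Sas10, Lcp5 and Bfr2 factors, all 6 were at least 2-fold lower, with a median of -2.47. MPP10 (YJR002W), the scaffold that carries Imp3 and Imp4, had 120.1 normalised reads in heat shock with rapamycin and 63.0 in heat shock without it, against 449 at 30 °C with rapamycin and 336 at 30 °C without it. It was 5.27-fold lower without rapamycin (3.83 to 7.60). IMP3 and IMP4, which help U3 pair with the precursor, were 8.68-fold (4.13 to 27.0) and 3.26-fold (1.79 to 6.81) lower. BFR2 was 10.3-fold lower (6.23 to 20.1), and of the pair with a Sas10 domain LCP5 was 5.81-fold (3.62 to 10.5) and SAS10 4.39-fold (3.13 to 6.46).

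The enzymes that remodel RNA were lower as well, though less so in the median, which was -2.20 for 7 genes that encode helicases or helicase-like proteins, the GTPase Bms1 and its partner Rcl1. UTP25, a helicase-like protein, was 14.9-fold lower (8.76 to 30.8), and the DEAD-box helicases RRP3, DBP8 and ROK1 were 8.11-fold (5.34 to 13.6), 7.73-fold (4.44 to 16.2) and 4.58-fold (3.09 to 7.28) lower. BMS1 (YPL217C) had 167 normalised reads in heat shock with rapamycin and 123 in heat shock without it, against 669 at 30 °C with rapamycin and 405 at 30 °C without it. It was 3.27-fold lower without rapamycin (2.57 to 4.26). ECM16 (YMR128W), the DEAH-box helicase that displaces U3, was 2.72-fold lower (2.01 to 3.79), and RCL1 (YOL010W), the BMS1 partner, 2.64-fold (1.76 to 4.17).

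Among the nucleases and RNA-modifying enzymes, all 5 were at least 4-fold lower, with a median of -2.87. EMG1 (YLR186W), a methyltransferase, had 37.5 normalised reads in heat shock with rapamycin and 10.5 in heat shock without it, against 159 at 30 °C with rapamycin and 147 at 30 °C without it. It was 12.9-fold lower without rapamycin, with a wide interval of 6.57 to 35.8. DIM1 (YPL266W), a dimethyltransferase, was 7.33-fold lower (4.11 to 16.0), KRE33 (YNL132W), the RNA acetyltransferase, 6.94-fold (4.87 to 10.6), and FCF1 (YDR339C), the nuclease also called UTP24, 4.22-fold (2.51 to 8.01). UTP23 (YOR004W), a PIN-domain protein, rested on 3 reads in heat shock without rapamycin, and its ratio was 15.8-fold lower with an interval of 6.22 to 95.1.

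The other 17 assembly factors were all at least 2-fold lower, with a median of -2.39. UTP14 (YML093W), which activates the helicase Ecm16, was 17.4-fold lower (10.3 to 36.0), PNO1 (YOR145C), a KH-domain factor also called DIM2, 14.9-fold (7.63 to 41.2), and ENP1 (YBR247C), which stays with the particle into the cytoplasm, 11.2-fold (7.26 to 19.6). SOF1 (YLL011W), a WD-repeat factor, was 6.80-fold lower (4.10 to 13.0). RRP5 (YMR229C), which works for both subunits, had 528 normalised reads in heat shock with rapamycin and 328 in heat shock without it, against 2141 at 30 °C with rapamycin and 1388 at 30 °C without it. It was 4.22-fold lower without rapamycin (3.65 to 4.92). UTP20 (YBL004W), a very long repeat protein, was 3.78-fold lower (3.31 to 4.34) and NOC4, the partner of Nop14, 3.09-fold (2.02 to 5.03). UTP11 was 5.25-fold lower (3.17 to 9.89) and BUD21, also called UTP16, 4.17-fold (2.64 to 7.22). For the long and well covered genes, such as RRP5 and UTP20, the counting intervals were the narrowest.

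FYV7 (YLR068W), a small factor of early cleavage, had no reads in heat shock without rapamycin. Its normalised read counts were 6.73 in heat shock with rapamycin and 0 in heat shock without it, against 42.6 at 30 °C with rapamycin and 24.3 at 30 °C without it. Set at a bound of 3 reads in that library, FYV7 was 5.40-fold lower. The lower limit of its counting interval, which also covers the reads at 30 °C, was 3.93-fold lower. With FYV7 at the bound of 3 reads the median of the 55 members was -2.79, and 22 rather than 23 were at least 8-fold lower.

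Levels per length were compared inside the complexes, since their proteins are thought to act together. At 30 °C without rapamycin the 55 members spanned 48.5 normalised reads per kb for UTP30, a ribosomal protein L1-like factor, to 1009.4 for SNU13, with a median of 145. The 5 highest were SNU13, NOP1, NSR1, NOP56 and NOP58, with NOP1 at 997 and NSR1 at 939 per kb. The 5 lowest were UTP30, FYV7 at 53.3, ECM16 at 60.5, IMP4 at 75.3 and NOC4 at 76.7 per kb. In the UTP-A complex the highest level per kb was 8.11 times the lowest in heat shock without rapamycin, against 2.34 times at 30 °C without rapamycin. NAN1 at 55.2 and UTP15 at 6.80 per kb were its ends in heat shock. UTP-B spanned 2.79 times in heat shock and 1.75 times at 30 °C, both without rapamycin. For the box C/D proteins the span was 16.2 times in heat shock and 9.97 times at 30 °C, with SNU13 at the top and RRP9 at the bottom of both. No test of these spans was made, and low counts in heat shock widen them.

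**Figure D3:**
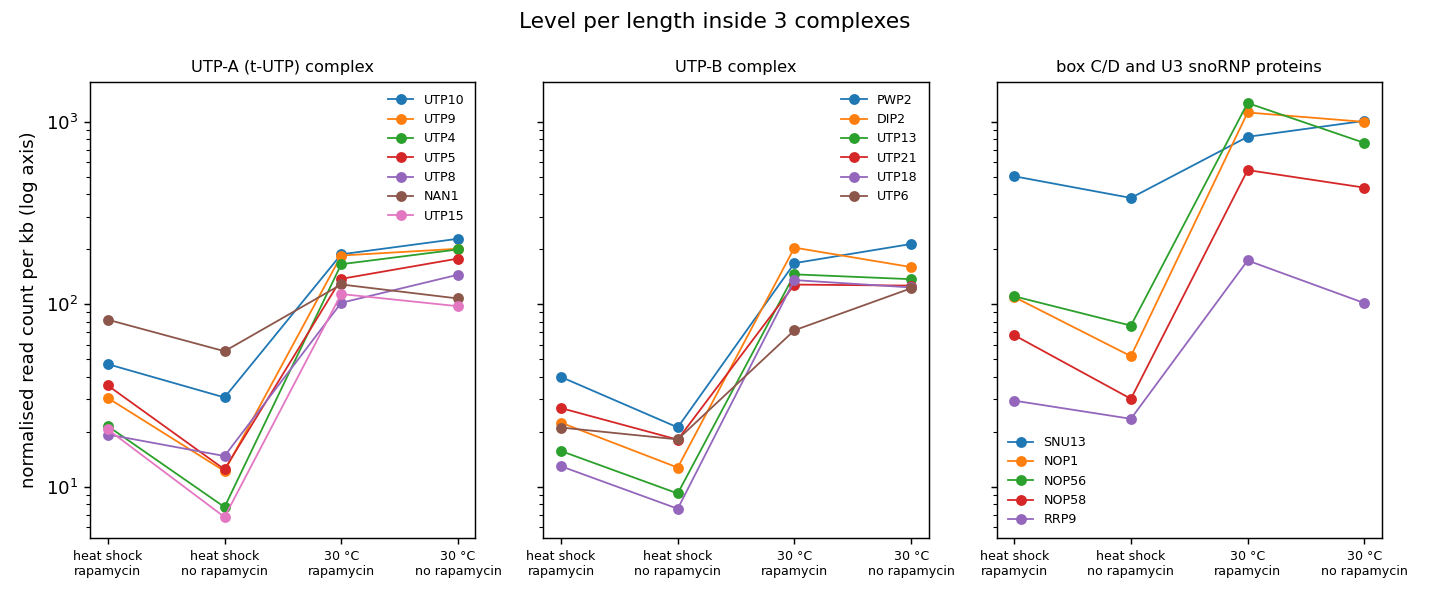
Normalised read count per kb of coding sequence on a log axis for the members of UTP-A, UTP-B and the box C/D group in the 4 libraries, 1 line for each gene. In UTP-A NAN1, and in the box C/D group SNU13, stay nearest their 30 °C level in both heat shock libraries, and the other genes lie further below theirs.

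Heat shock with rapamycin was compared with 30 °C with rapamycin, which asks how the genes stood in heat when Hsf1 was drawn from the nucleus. Most were again far below their 30 °C level, by a smaller factor. Of the 55 members, 51 were at least 2-fold lower, against 14.6% of all features, and none was at least 2-fold higher, against 18.3%. The median was -2.06, against -0.00195 for all features, and the median of the members' interval bounds ran from -2.52 to -1.76. At least 4-fold lower were 30 members, against 3.63% of all features, and at least 8-fold lower 8, against 1.01%. The summed value was 4.48-fold lower (4.35 to 4.62), with 5097 reads or 0.226% of the library in heat shock and 24711 reads or 0.765% at 30 °C, both with rapamycin.

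NSR1 again had the lowest ratio, 46.4-fold lower with an interval of 34.2 to 68.8. NOP56 was 11.4-fold lower (9.81 to 13.4), NOP1 10.2-fold (8.45 to 12.6), UTP18 10.1-fold (6.90 to 16.6) and UTP13 9.08-fold (6.71 to 13.2). The box C/D group and UTP-B had the lowest group medians, -2.99 and -2.70. The 4 members that missed the size rule were KRR1, with a log2 ratio of -0.999 that fell just short of it, SNU13 at 1.64-fold (1.38 to 1.97), NAN1 at 1.56-fold (1.32 to 1.84) and RRP7. RRP7 alone had a ratio above 0, 0.26, with an interval of -0.09 to 0.62 that included no change.

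Members kept much the same order in the 2 arms, which share no library. Across the 55 genes the ratios had a Pearson r of 0.81 and a Spearman rho of 0.79. Across all 5642 features the values were 0.80 and 0.78. These are descriptions across genes of the same libraries, not across replicates. With the log2 length of the gene the ratios had an r of -0.07 with rapamycin and 0.05 without it.

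**Figure D4:**
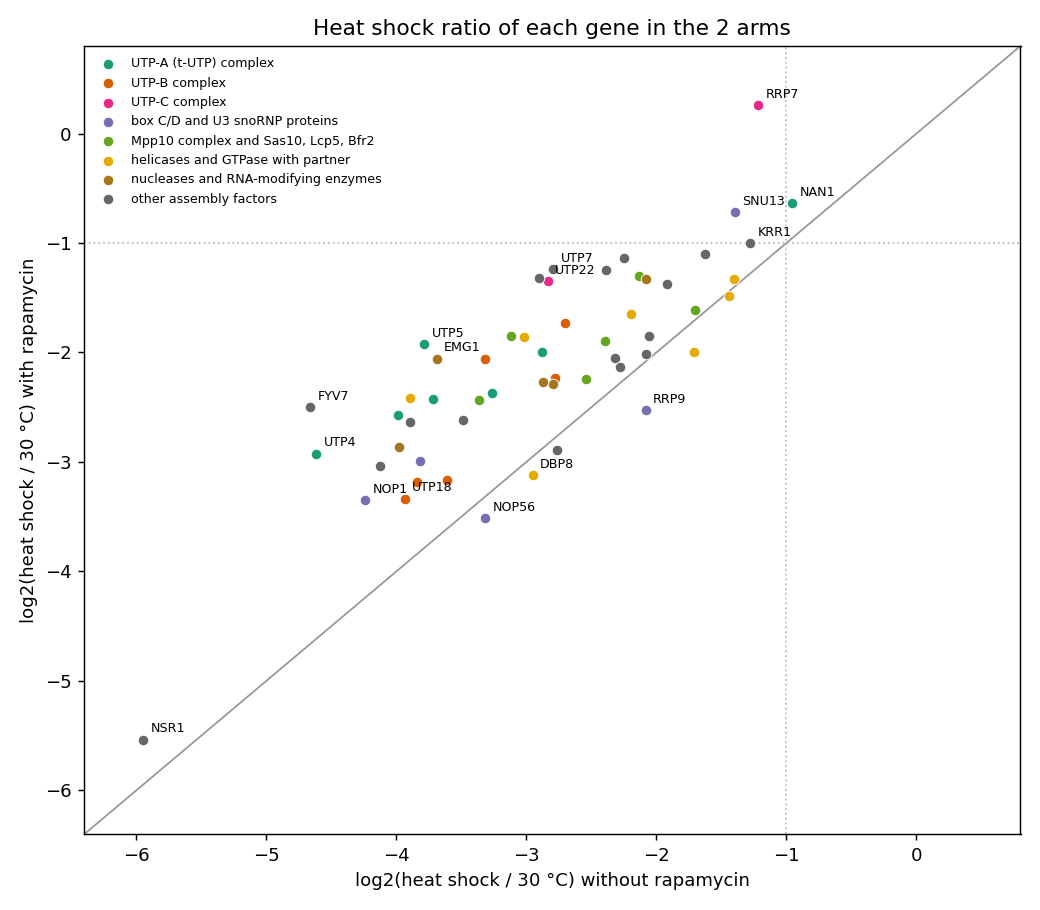
Log2 ratio of heat shock to 30 °C for each of the 55 genes with rapamycin (vertical) and without it (horizontal), coloured by role; the line marks equal ratios and the dotted lines a 2-fold lower value. Most genes, 49 of 55, lie above the line, against 53.1% of all features, and NSR1 is lowest on both axes. FYV7 had no reads in heat shock without rapamycin, and its horizontal position is set by the 1 added to each value.

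Motif classes were compared by the heat shock ratio in both arms. In the 42 members with both motifs the median was -2.18 with rapamycin and -2.88 without it. The 6 members with PAC alone, UTP7, UTP13, RRP9, MPP10, ENP2 and ECM16, had -1.69 and -2.32. For the 5 with RRPE alone, UTP4, UTP15, UTP30, RRP7 and FCF1, the medians were -1.33 with rapamycin and -2.90 without it, and the class held both UTP4 and RRP7, from opposite ends of the range. UTP22 and EMG1 had neither motif in the window and were nonetheless 7.14-fold and 12.9-fold lower without rapamycin. Over all features with both motifs the median was -1.40 with rapamycin and -1.88 without it, and over those lacking the pair 0.05 in both arms. The classes are small and no test was made between them.

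Some promoters are shared with a gene on the other strand. Of the 55 members, 22 have a protein-coding neighbour that starts in the opposite direction from the same upstream region and passed the filter. With rapamycin, heat shock left 5 of these neighbours at least 2-fold lower and 1 higher, with a median of -0.16. Of all features 14.6% were lower and 18.3% higher by that rule. Without rapamycin 6 neighbours were lower, 1 was higher and 15 lay between, with a median of -0.35, against 19.3% lower and 19.8% higher of all features. LCP5 shares 301 bases with NSA2, a large subunit assembly factor with a ratio of -3.23. SAS10 shares 324 bases with RPC53, an RNA polymerase III subunit, at -2.75, and RRP3 shares 297 bases with SSF1, another large subunit factor, at -2.66, all without rapamycin. Also lower were ICE2, upstream of UTP25, at -1.43, RPS18A, upstream of UTP6, at -1.38, and PET309, upstream of FYV7, at -1.02. AIP1, an actin regulator upstream of UTP15, was the 1 neighbour that was higher without rapamycin, with 1.66, while UTP15 stood at -3.72.

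Rapamycin against none at 30 °C asks what the drug and the loss of nuclear Hsf1 did without heat. The processome changed little there. Only RRP7 was at least 2-fold lower, against 4.02% of all features, and none was 2-fold higher, against 4.7%. The median was 0.14, against 0.01 for all features, with 34 members above 0, 61.8%, against 51.2% of all features, and 21 below. That direction depends on the scaling, because division by library totals moved the median of all features to -0.34 and left 18 members above 0. The median of the members relative to all features was 0.12 on both. It could hardly move, because a scaling shifts members and all features alike. The summed value was 1.11-fold higher with rapamycin on the deposited scaling (1.08 to 1.13), but as a share of the library it was lower, 0.765% with rapamycin against 0.889% without it. Counting intervals lay above 0 for 21 members and below 0 for 11, with no such count made over all features.

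RRP7 was 2.05-fold lower with rapamycin at 30 °C, a log2 ratio of -1.04 with an interval of -1.39 to -0.70. UTP22, its UTP-C partner, had the next lowest ratio, -0.78 (-0.97 to -0.60), followed by UTP6 of UTP-B at -0.76 (-1.16 to -0.37). UTP8 stood at -0.51 (-0.78 to -0.24) and UTP20 at -0.47 (-0.59 to -0.35). At the other end were FCF2, a cleavage factor, at 0.80 (0.40 to 1.22), FYV7 at 0.79 (-0.01 to 1.7), RRP9 at 0.77 (0.47 to 1.09), IMP4 at 0.75 (0.26 to 1.28) and NOP56 at 0.73 (0.61 to 0.84). The UTP-A and UTP-C medians were below 0, at -0.27 and -0.91, and the other group medians lay between 0.05 and 0.38.

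Rapamycin against none in heat shock gave a more even picture. All 55 members were higher with rapamycin on the deposited scaling, against 54% of all features. The other scalings could not change that count, since each moved the median of all features upward, to between 0.05 and 0.53. The lowest member, DBP8 at 0.02, lay below the median of all features on the deposited scaling. The median was 0.77, against 0.04 for all features, and the medians of the interval bounds were 0.06 and 1.56. At least 2-fold higher were 17 members, against 4.56% of all features, and none was lower, against 2.46%. With FYV7 at its bound the count was 16 and the median 0.75. The count moves with the scaling, to 43 on library totals and 34 on protein-coding totals, since the median of all features then moved to 0.53 and 0.37. Summed over members the value was 1.58-fold higher (1.5 to 1.67).

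PNO1 had the largest ratio of those with reads in both libraries. At 44.2 normalised reads in heat shock with rapamycin against 10.5 in heat shock without it, PNO1 was 3.93-fold higher, with an interval of 1.89 to 11.1. EMG1 was 3.35-fold higher (1.58 to 9.46), and IMP3 2.98-fold (1.31 to 9.42). UTP23, again on 3 reads without rapamycin, was 3.15-fold higher with an interval of 1.05 to 19.3. The UTP-A median was 1.29, with UTP15 2.85-fold higher (1.31 to 8.09), UTP5 2.81-fold (1.66 to 5.31), UTP4 2.68-fold (1.46 to 5.72) and UTP9 2.45-fold (1.38 to 4.90).

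At the low end were DBP8 at 0.02 (-1.10 to 1.2), UTP20 at 0.08 (-0.14 to 0.30), NOP14 at 0.10 (-0.46 to 0.68), SOF1 at 0.15 (-0.82 to 1.17) and UTP6 at 0.21 (-0.71 to 1.2). For these 5 the counting interval included 0. Over all members 32 intervals lay above 0 and 23 included it, and the share over all features was not computed. In an edgeR quasi-likelihood fit to the recovered reads with 1 term for heat and 1 for rapamycin, no member passed a Benjamini-Hochberg adjusted p of 0.05 for rapamycin. At an unadjusted p under 0.05 there were 11 of 55, all of them higher with rapamycin, against 369 of all 5642 features in either direction. That fit has 1 residual degree of freedom and gives 1 rapamycin effect for both temperatures.

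**Figure D5:**
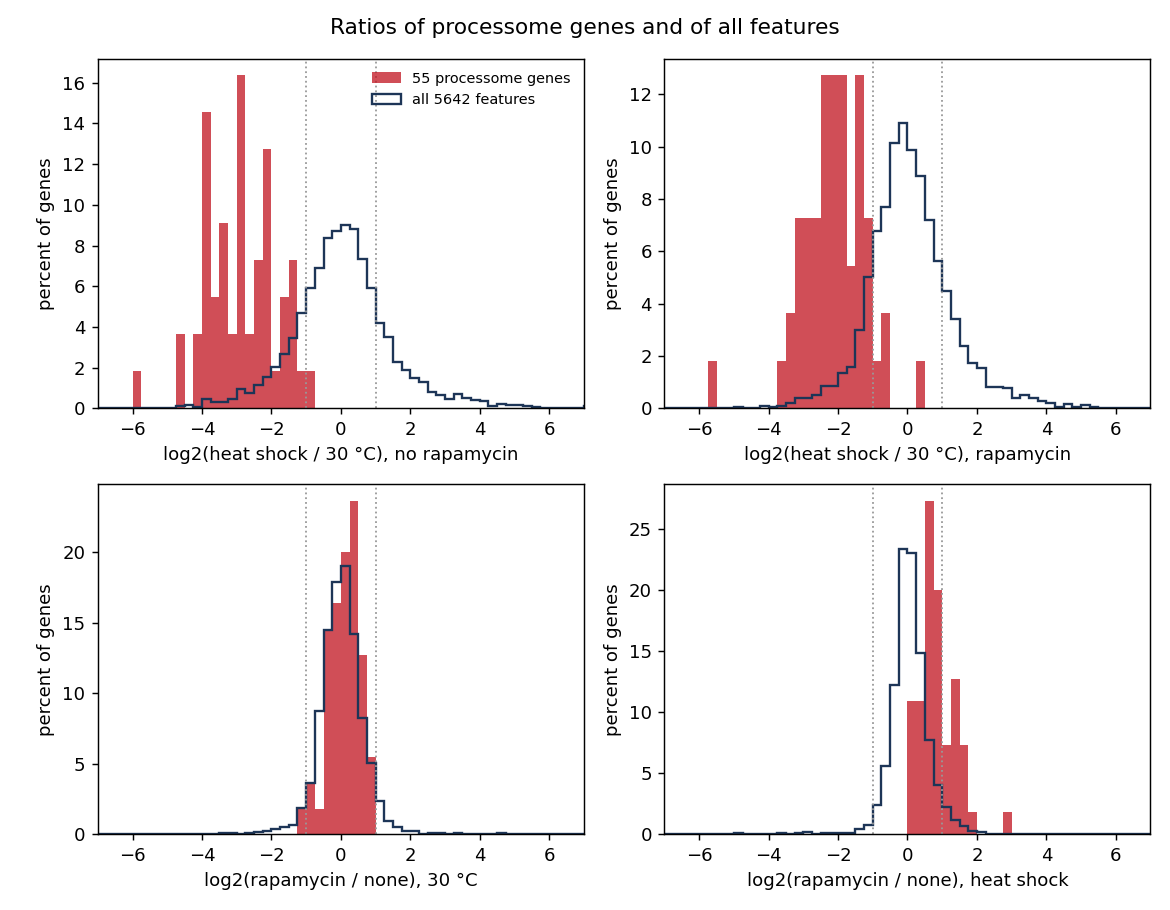
Share of genes in bins of the log2 ratio for the 55 processome genes (filled) and all 5642 features (line) in the 4 comparisons, with dotted lines at a 2-fold change either way. The filled bars lie left of the line in both heat shock comparisons, with medians of -2.06 with rapamycin and -2.84 without it, overlap it for rapamycin at 30 °C, and lie above 0 for rapamycin in heat shock.

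The difference between the 2 heat shock ratios, with rapamycin minus without it, puts the same 4 libraries together. It was above 0 in 49 members, against 53.1% of all features, with a median of 0.75, against 0.06. At least 2-fold higher were 19 members, against 9.25% of all features, and none was 2-fold lower, against 8.29%. With FYV7 at its bound these values were 48 members above 0, 18 at least 2-fold higher, and a median of 0.68. Library totals raised the count to 45, and protein-coding totals to 39. Counting intervals of the difference lay above 0 for 23 members and below 0 for none. No such count was made over all features, so these counts have no background beside them.

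UTP5 had the largest difference of those with reads in all 4 libraries, 1.86 (1.05 to 2.81), with heat shock values 3.80-fold lower with rapamycin and 13.8-fold lower without it. UTP4 stood at 1.69 (0.79 to 2.81), EMG1 at 1.63 (0.48 to 3.18), and UTP30, on 3 reads, at 1.58 (-0.33 to 4.34). UTP7, a WD-repeat factor, had 1.56 (0.83 to 2.38). UTP22 and RRP7 had 1.49 (1.03 to 1.96) and 1.48 (0.93 to 2.05). UTP22 had rapamycin ratios of 0.70 (0.29 to 1.14) in heat shock and -0.78 at 30 °C, and RRP7 0.44 (0.01 to 0.88) and -1.04. For UTP5 they were 1.49 (0.73 to 2.41) in heat shock and -0.37 (-0.62 to -0.12) at 30 °C. The 6 members below 0 were RRP9 at -0.45, BMS1 at -0.28, NOP56 at -0.20, DBP8 at -0.17, SOF1 at -0.13 and ECM16 at -0.04, each with an interval that included 0.

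Other genes of the pathway were placed beside the members from lists of known factors. Of 21 further factors tied to the processome, 18 stood at least 2-fold lower in heat shock with rapamycin and 18 without it, with medians of -1.65 and -2.20. That rule was met by 14.6% of all features with rapamycin and 19.3% without it. DHR2, a helicase, was 14.0-fold lower without rapamycin, and NOP9, an RNA-binding factor, 12.8-fold. Of 60 large subunit assembly factors, 58 were lower in each arm, with medians of -2.52 with rapamycin and -2.81 without it. Rapamycin in heat shock gave them a median of 0.68 with 18 at least 2-fold higher, against 0.77 and 17 of 55 in the processome. Of all features 4.56% were at least 2-fold higher in that comparison. RPF2 and REI1, both large subunit factors, rested on 1 and 2 reads in heat shock without rapamycin.

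The 6 box H/ACA proteins, which guide pseudouridine formation, had medians of -2.47 with rapamycin and -3.11 without it. CBF5, the pseudouridine synthase, was 13.7-fold lower with rapamycin and 15.2-fold lower without it. Of 11 late 40S factors 7 and 9 were at least 2-fold lower, and of 11 RNA polymerase I genes 8 and 9, in heat shock with and without rapamycin. The same rule was met by 14.6% and 19.3% of all features. Of 14 exosome genes 5 and 8 were lower in the same arms, with the helicase MTR4 at 6.08-fold and 10.3-fold. Casein kinase 2, which is found in UTP-C but serves the whole cell, had none of 4 subunits past 2-fold in either arm, with medians of -0.23 and -0.27.

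The 14 regulators of these genes did not share one direction. With rapamycin heat shock left 3 at least 2-fold lower and 4 higher, and without it 4 were lower and 1 higher. Of all features 14.6% were lower and 18.3% higher with rapamycin, and 19.3% and 19.8% without it. TOD6, the PAC repressor, had 21.1 normalised reads in heat shock with rapamycin and 15.0 in heat shock without it, against 108 at 30 °C with rapamycin and 162 at 30 °C without it. Its paralog DOT6 had 363 and 328 in heat shock with and without rapamycin, against 129.7 and 183 at 30 °C. STB3, the RRPE repressor, had 136 and 145 in heat shock against 46.2 and 78.6 at 30 °C, in the same order, and SFP1, an activator of these genes, 362 and 223 against 143 and 189. Among these repressor genes TOD6 was lower in heat and DOT6 and STB3 were higher. FPR1, whose protein carries rapamycin to TORC1, was listed at 0 in all 4 libraries, and a feature listed at 0 in these files need not lack the transcript. TORC1 activity was not measured.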

How the data were processed

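Total RNA was extracted with phenol and chloroform and made into Illumina TruSeq libraries, per the labels' protocols. Per the submitters' processing notes, TopHat, HTSeq and the build sacCer3 were used; their versions and settings, and any use of strand in counting, are not stated in them or in the labels. Behind the deposited signal values stand read counts for each gene, scaled by 1 factor for each library, with 2 decimals kept. The values themselves show this, since 100% of those above 0 were whole multiples of 1 step within 0.0055. The step was 0.961, 1.5, 0.888 and 1.43 in heat shock with rapamycin, heat shock without, 30 °C with and 30 °C without. Recovered reads summed to 2254007, 2026880, 3231228 and 1561620 in that order. Of 7126 features 6162 matched RefSeq (R64); 964 did not. No member overlaps a RefSeq gene; 10 have a neighbouring listed frame that RefSeq does not place.

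Ratios are log2((a + 1)/(b + 1)) of deposited values, for features with a mean of at least 5, and a change of 2-fold was the size rule. Each condition had 1 library, so no p-value was given for a ratio. Read ratios have exact conditional binomial 95% intervals, differences conditional odds ratio intervals, and shares Clopper-Pearson intervals, all for counting error only. The floor for 0 reads was 3 reads in that library. Levels per kb use coding length. Motifs were searched on both strands. The count fit was edgeR 4.0.16 (limma 3.58.1, R 4.3.3), tested on simulated data; other steps used Python 3.11.15, pandas 2.3.3 and SciPy 1.17.1. Alternatives were other scalings, pseudocounts of 0.25 and 5, other filters on low values, the count fit, and the 45 members without such a frame. The members, lists and the rule for named genes were chosen with earlier results of these data known. The rule allowed every member to be named and picked the 5 lowest and 5 highest in each comparison and some by role; not all of these are printed with every value.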

Additional observations from a re-analysis of the deposited data

Results flagged for a closer look

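In UTP-A the median log2 ratio of rapamycin to none was 1.29 in heat shock and -0.27 at 30 °C. In UTP-C it was 0.57 in heat shock and -0.91 at 30 °C. Both complexes were picked out because the rapamycin ratio went at least 1.2-fold in opposite directions at the 2 temperatures. Which groups meet that rule can depend on the scaling. Library totals moved the median of all features for rapamycin at 30 °C from 0.01 to -0.34, and the group medians were computed on the deposited scaling only. Each condition had 1 library, and the difference was not tested.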

How the results depend on the processing

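The 2 heat shock comparisons kept their counts of lower members within 1.5 times under every alternative tried, and the median of rapamycin at 30 °C was the 1 median that changed sign, also to -0.10 on protein-coding totals. Division by library totals moved the median heat shock ratio with rapamycin to -1.66, that of rapamycin at 30 °C to -0.23 with 3 members lower, and that of the difference to 1.58 with 45 higher, and it raised the members higher with rapamycin in heat shock to 43. Protein-coding totals gave 2, 39 and 34 for the same 3 counts. The library totals moved the median of all features to 0.40 and -0.42 in heat shock with and without rapamycin, -0.34 for rapamycin at 30 °C and 0.53 in heat shock. The members relative to that median stood at -2.06, -2.86, 0.12 and 0.72. These differences could hardly move, because a scaling shifts the log2 ratios of members and of all features alike. In the edgeR fit the heat term called 54 members lower and 0 higher, of 1090 and 1140 features, at a Benjamini-Hochberg adjusted p under 0.05. Its rapamycin term called 0 members lower and 0 higher, of 20 and 6 features, with 11 of 55 members and 369 of 5642 features at an unadjusted p under 0.05; the cause was not tested. The spread in the edgeR fit is the departure from its heat and rapamycin terms, so its p-values do not measure the difference between cultures. Of protein-coding reads alone the members took 0.340% and 0.171% in heat shock with and without rapamycin, and 1.29% and 1.38% at 30 °C. Single members' values stayed within counting error in 2536 cases and moved in 159. The first count includes the other filters and the subset of 45 members, which cannot change a member's value. It is therefore no measure of stability. A filter at a mean of 20 left out FYV7 alone. No paired analysis was possible because each group had 1 library, which also means that no replicate could be left out. Depth limits the single ratios, with a median of 21 reads for each member in heat shock without rapamycin.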
